A study of Mus musculus with 2 samples.

Results

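The 7 genes described here encode subunits of the GABA-A receptor: the alpha subunit genes Gabra2, Gabra3, Gabra4 and Gabra5, the beta subunit genes Gabrb1 and Gabrb2, and the delta subunit gene Gabrd. They were taken by gene symbol, with no threshold on their level, and all 7 were present among the 32531 gene symbols of both count tables. Both libraries were made from dentate gyrus tissue of adult Lypd1-TRAP mice (line OI82), in which the ribosomal protein Rpl10a carries an EGFP tag and is expressed under the regulatory sequence of Lypd1. Polysomes holding the tag were pulled down with anti-EGFP antibodies, so the counts are of ribosome-bound RNA (translating ribosome affinity purification, TRAP). There is 1 group of 2 untreated replicates, both immunopurified, and all mice carry the transgene. Whether the replicates are separate animals or pools is not given in the sources used here, so the spread between them may be technical. Input RNA was not analysed here, and no value is an enrichment over the tissue.

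GABA-A receptors are pentameric chloride channels opened by GABA, the main inhibitory transmitter of the forebrain. Receptors usually combine alpha and beta subunits with a gamma or a delta subunit, and the alpha subunit present sets much of the pharmacology and the place of the receptor on the cell. In dentate granule cells, receptors holding alpha4 and delta lie outside synapses and carry a steady (tonic) inhibitory current that neurosteroids enhance.

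The purified RNA carried the markers of granule cells. Levels are given in counts per 1000000 counts on gene lines (CPM). All 12 granule cell markers, led by Rfx3 and Prox1, reached a CPM of 1 in each library, against 38.1% of all symbols. The list was chosen with earlier results of these data known. Of 10 astrocyte markers 9 also reached this level, so the count alone does not single out granule cells. The summed level of the 12 granule cell markers was 5334 CPM in replicate 2, against 5250 CPM in replicate 1. Gene lines held 32711412 counts in replicate 2 and 31309643 in replicate 1. The libraries differed beyond counting error, with a chi-square statistic of 79.8 per degree of freedom over genes.

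Of the 7 subunit genes, 6 passed a CPM of 1 in both libraries, against a share of 38.1% of all symbols in the tables. The level ran from 163 to 359 CPM for Gabra5, Gabrb2 and Gabra4, through about 100 CPM for Gabra2 and 13.2 to 31.1 CPM for Gabrb1 and Gabrd, down to about 1 CPM for Gabra3. The median over the 7 genes, Gabra3 included, was 99.0 CPM. The median over the 12402 genes that passed a CPM of 1 in both libraries was 22.5 CPM. Neither median is corrected for length. Since 1 count was worth 0.0306 CPM in replicate 2, against 0.0319 CPM in replicate 1, counting error is small for all of these genes but Gabra3.

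**Figure D1:**
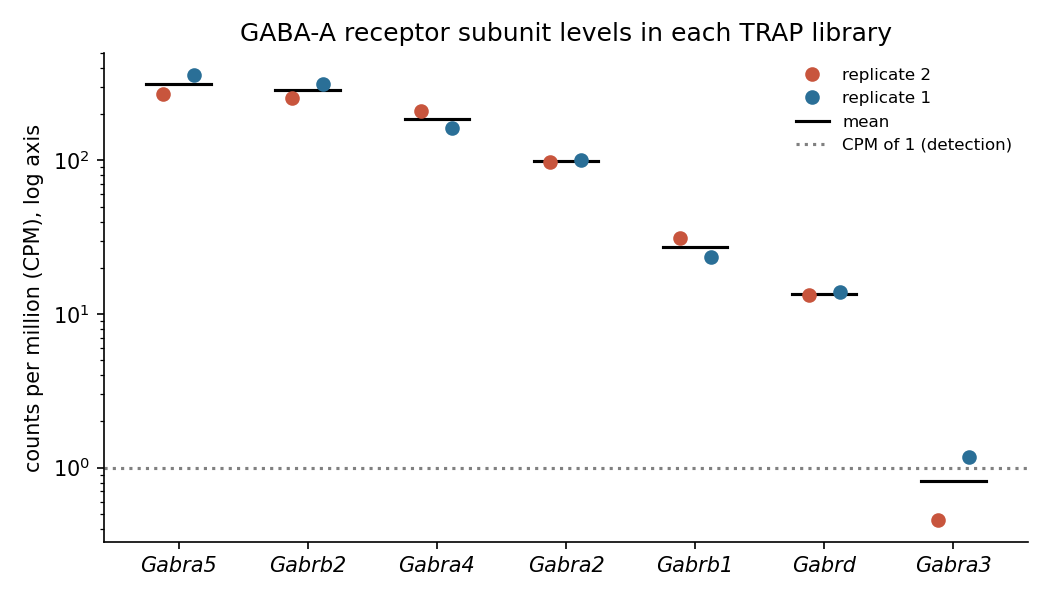
Level of each subunit gene in CPM, on a log axis, with 1 point per library (replicate 2 left, replicate 1 right) and a bar at the mean of the 2 libraries. Gabra5, Gabrb2 and Gabra4 lie between 163 and 359 CPM, and Gabra3 lies on both sides of the dotted line at a CPM of 1.

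Gabra5 had the highest level of the 4 alpha genes described here, per length as well as in CPM. It encodes the alpha5 subunit, which in hippocampal pyramidal cells forms receptors that are largely extrasynaptic and is a target of subtype-selective benzodiazepine-site ligands. Gabra5 had 8904 counts and 272 CPM in replicate 2, and 11225 counts and 359 CPM in replicate 1. Its mean was 315 ± 61.0 CPM (SD, n = 2), and among detected genes it stood at percentile 94.7 in replicate 2 and at percentile 96.6 in replicate 1. It lies on chromosome 7 (57407672 to 57510059, minus strand, GRCm38). Of its exon bases, 4.98% are shared with exons of other annotated genes, where reads without strand cannot be told apart.

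Gabra4, which encodes the usual partner of delta in the forebrain, came second among these 4. It had 6893 counts and 211 CPM in replicate 2, against 5103 counts and 163 CPM in replicate 1, a mean of 187 ± 33.8 CPM (SD, n = 2). The libraries thus ordered Gabra4 and Gabra5 alike, but the distance between them differed. Per kilobase of exon, Gabra4 stood at 0.378 times Gabra5 in replicate 2 (95% counting interval 0.367 to 0.391) and at 0.222 times in replicate 1 (0.215 to 0.230). The 2 intervals did not overlap, and the ratio was 1.70 times larger in replicate 2. Gabra4 lies on chromosome 5 (71569749 to 71658308, minus strand).

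Gabra2 was the steadiest of the 4 between the libraries. Its product, alpha2, is enriched at axon initial segment synapses of forebrain principal cells. It had 3180 counts and 97.2 CPM in replicate 2, and 3157 counts and 101 CPM in replicate 1, with an SD of 2.58% of the mean. It lies on chromosome 5 (70957597 to 71095849, minus strand), separated from Gabra4 by 473899 bases.

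Gabra3 was close to the lower limit of these libraries. The alpha3 subunit is known from monoaminergic nuclei, the thalamic reticular nucleus and some interneurons. Gabra3 had 15 counts and 0.459 CPM in replicate 2, and 37 counts and 1.18 CPM in replicate 1, so replicate 1 lay above a CPM of 1 and replicate 2 below it. It made up 0.0790% of the counts on the 4 alpha genes in replicate 2 (exact binomial interval 0.0442% to 0.130%) and 0.190% in replicate 1 (0.133% to 0.261%). It lies on the X chromosome (72432681 to 72656848, minus strand).

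Of the 2 beta genes described here, Gabrb2 had the higher level. Beta subunits contribute to the GABA binding site, and beta2 and beta1 differ in their sensitivity to the anaesthetic etomidate, to which beta2 receptors respond more strongly. Gabrb2 had 8386 counts and 256 CPM in replicate 2, and 9881 counts and 316 CPM in replicate 1 (mean 286 ± 41.9 CPM, SD, n = 2). Gabrb1 had 1016 counts and 31.1 CPM in replicate 2, and 736 counts and 23.5 CPM in replicate 1 (mean 27.3 ± 5.34 CPM). No value of Gabrb1 came near any value of Gabrb2. Per kilobase of exon, Gabrb2 stood at 18.0 times Gabrb1 in replicate 2 and at 29.2 times in replicate 1. Per kilobase of coding sequence the ratios were 7.64 in replicate 2 and 12.4 in replicate 1, because the annotated exons of Gabrb1 cover 13838 bases, of which its longest coding sequence is 1422. Gabrb2 lies on chromosome 11 (42419757 to 42629028, plus strand) and Gabrb1 on chromosome 5 (71658113 to 72149037, plus strand).

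Gabrd was present at a lower level than Gabra4 in both libraries. It had 433 counts and 13.2 CPM in replicate 2, and 437 counts and 14.0 CPM in replicate 1, and thus stood at percentile 39.3 of detected genes in replicate 2 and at percentile 38.3 in replicate 1. Per kilobase of exon, Gabra4 was at 7.52 times Gabrd in replicate 2 (95% counting interval 6.83 to 8.31) and at 5.52 times in replicate 1 (5.004 to 6.10). Per kilobase of coding sequence Gabra4 was at 12.4 times Gabrd in replicate 2 and at 9.07 times in replicate 1. Gabrd lies on chromosome 4 (155384980 to 155398112, minus strand).

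Levels of different genes can be set side by side only per length. In CPM per kilobase of exon the order was Gabra5 (106 ± 20.5), Gabrb2 (45.0 ± 6.58), Gabra4 (30.7 ± 5.55), Gabra2 (13.0 ± 0.335), Gabrd (4.73 ± 0.177), Gabrb1 (1.97 ± 0.386) and Gabra3 (0.209 ± 0.130). No neighbours in that order overlapped between the ranges of the 2 libraries, and both libraries gave the same order. The closest neighbours were Gabrb2 and Gabra4 in replicate 2, where they differed 1.16-fold, against 1.85-fold in replicate 1. Per kilobase of coding sequence, Gabrb1 (19.2 ± 3.76) stood above Gabrd (10.1 ± 0.378), and the ranges of Gabra5 (227 ± 43.9) and Gabrb2 (186 ± 27.3) overlapped. The places of Gabrd and Gabrb1 therefore rest on the length used.

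**Figure D2:**
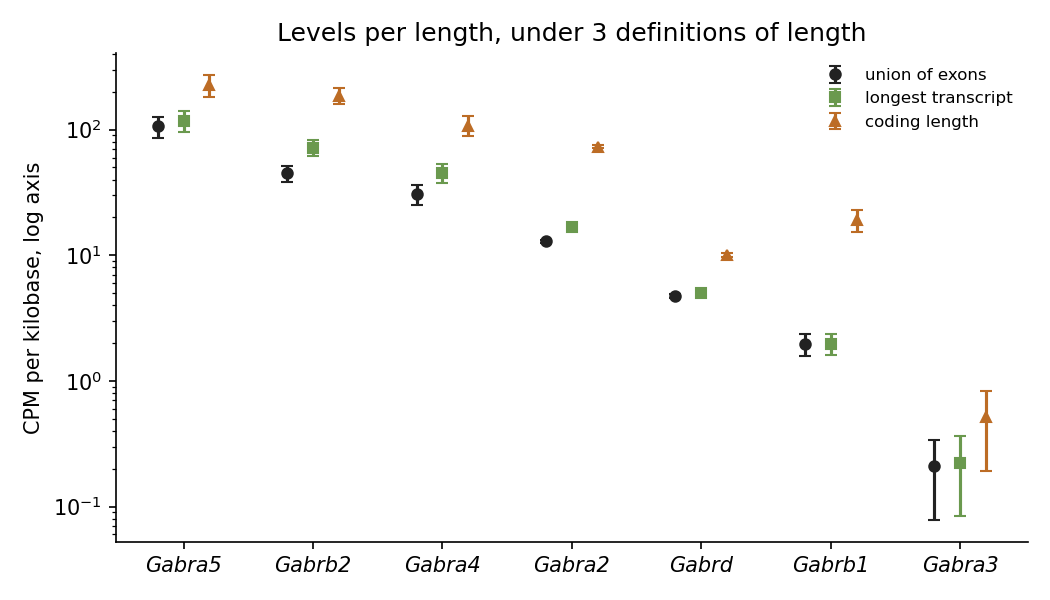
Mean level of each subunit gene in CPM per kilobase, on a log axis, for 3 definitions of gene length, with error bars of 1 SD over the 2 libraries. Gabra5 is highest and Gabra3 lowest under each of the 3 definitions, and Gabrb1 passes Gabrd under the coding length.

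Within the counts of the 7 genes, Gabra5 and Gabrb2 took the largest shares in both libraries. Gabra5 took 30.9% in replicate 2 (exact binomial interval 30.4% to 31.4%) and 36.7% in replicate 1 (36.2% to 37.3%). Gabrb2 took 29.1% in replicate 2 and 32.3% in replicate 1. Gabra4 took 23.9% in replicate 2 (23.4% to 24.4%) and 16.7% in replicate 1 (16.3% to 17.1%). These shares do not depend on how the libraries are scaled, and Gabra4 and Gabrb1 took more of the counts in replicate 2. Gabrb1 took 3.52% in replicate 2 and 2.41% in replicate 1, while Gabra2 and Gabrd differed less, at 11.03% and 1.502% in replicate 2, and 10.3% and 1.43% in replicate 1. Counted per length, Gabra5 alone took 49.2% in replicate 2 and 55.5% in replicate 1.

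**Figure D3:**
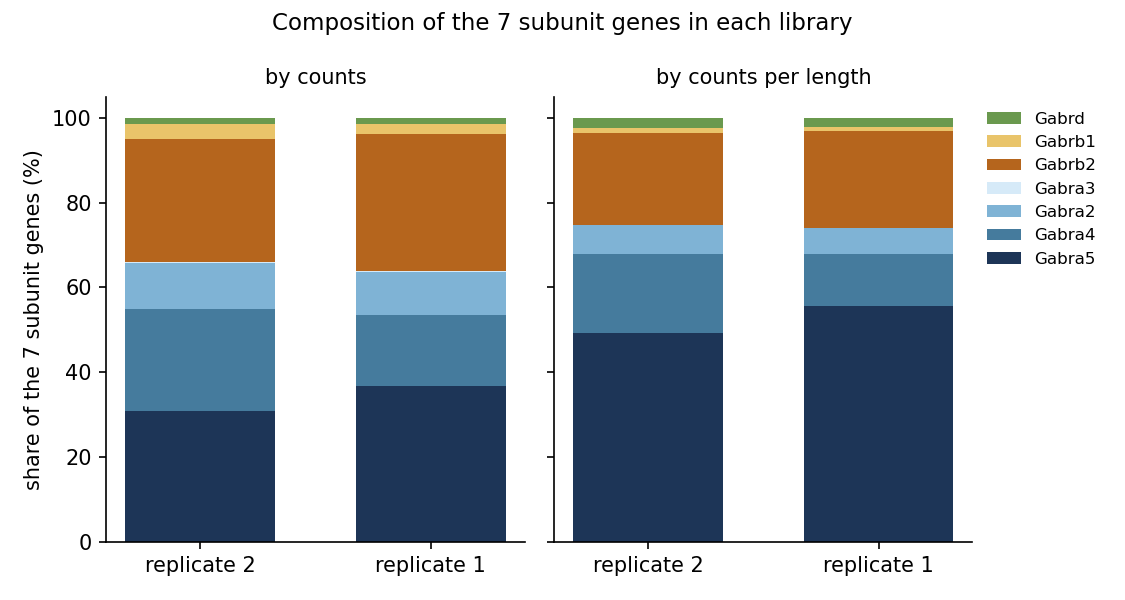
Share of each subunit gene in the summed counts of the 7 genes (left panel) and in the summed counts per base of exon (right panel), in percent, as 1 stacked bar per library. The Gabra4 segment is 23.9% of counts in replicate 2 and 16.7% in replicate 1, and the Gabra5 segment is 30.9% in replicate 2 and 36.7% in replicate 1.

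The 2 libraries are replicates of 1 group, so their difference was described by the log2 ratio of replicate 2 to replicate 1 and not tested. Gabra4 and Gabrb1 were higher in replicate 2, Gabra5 and Gabrb2 were lower, and Gabra2 and Gabrd were close to 0. The log2 ratio after edgeR's TMM scaling was 0.46 for Gabra4 (95% counting interval 0.41 to 0.52) and 0.49 for Gabrb1 (0.36 to 0.63). It was -0.30 for Gabra5 (-0.35 to -0.26) and -0.21 for Gabrb2 (-0.25 to -0.17). For Gabra2 it was 0.04 (-0.03 to 0.11) and for Gabrd 0.02 (-0.18 to 0.21), and with library totals alone these became -0.05 and -0.08, below 0. None of the 6 genes that averaged a CPM of 1 or more passed 1.5-fold, against 26.9% of the 13089 genes at that level. Their median log2 ratio was 0.03, and that of all 13089 genes was -0.01. Gabra3 had a log2 ratio of -1.17 (-2.25 to -0.37) on its 15 and 37 counts, below the mean CPM of 1. The intervals cover counting error only. The coefficient of variation that edgeR's intercept-only fit, with TMM scaling, gave to genes at the level of these 6 ran from 20.0% to 25.7%. In CPM, which is not TMM-scaled, the SD of each of the 6 was at most 19.6% of its mean. These 2 measures differ in scaling, so neither can be read as above or below the other. With library totals alone the log2 ratios of Gabra4 (0.37) and Gabrb1 (0.40) were smaller, and those of Gabra5 (-0.40) and Gabrb2 (-0.30) further from 0.

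**Figure D4:**
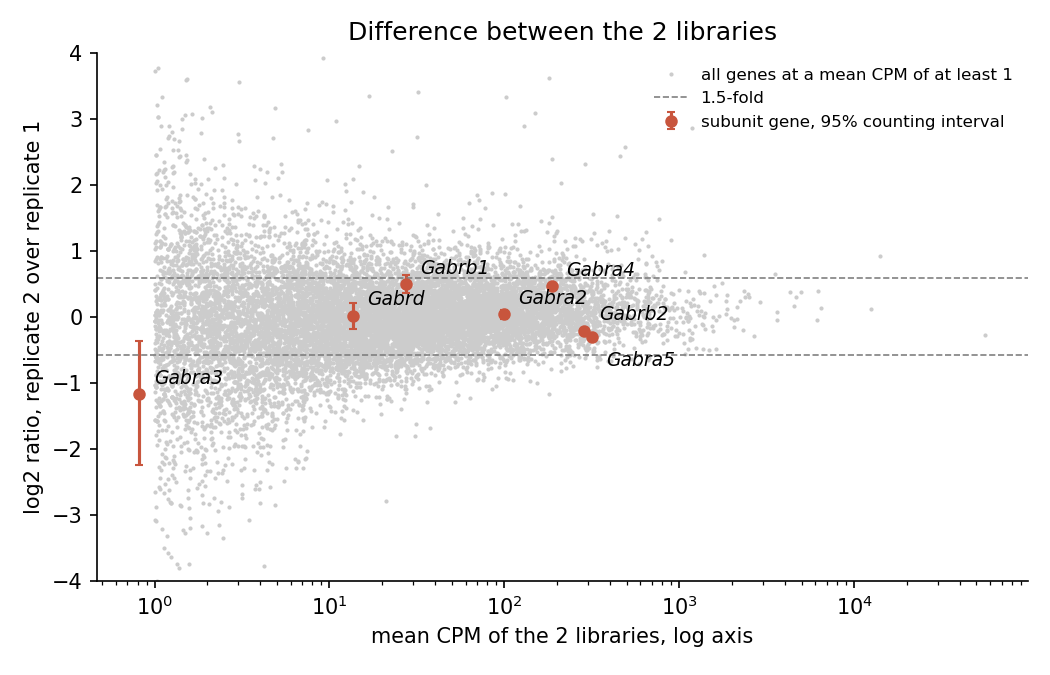
Log2 ratio of replicate 2 to replicate 1 after TMM scaling against the mean CPM on a log axis, for all genes at a mean CPM of at least 1 (grey, 25 genes lie beyond the vertical axis) and for the 7 subunit genes (red, with 95% counting intervals). Gabra4 and Gabrb1 lie at 0.46 and 0.49, Gabra5 and Gabrb2 at -0.30 and -0.21, and Gabra3 is the only one of the 7 outside the dashed lines at 1.5-fold.

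The 2 genes that were higher in replicate 2 are neighbours. Gabra4 and Gabrb1 run in opposite directions from overlapping starts on chromosome 5, sharing 196 bases in GENCODE and 388 bases by their RefSeq starts. Their ratio per length differed between the libraries by less than the counting error, with Gabra4 at 15.4 times Gabrb1 per kilobase of exon in replicate 2 (95% counting interval 14.4 to 16.5) and at 15.8 times in replicate 1 (14.6 to 17.1). Gabra2, on the same chromosome and the same strand as Gabra4, had a log2 ratio of 0.04. Gabrd, on another chromosome, had one of 0.02, and both lay near the median of all genes (-0.01). The part of the shared locus in the ratios of Gabra4 and Gabrb1 was not tested. The shared exon sequence is 46 bases, which is 0.756% of the exons of Gabra4 and 0.332% of those of Gabrb1.

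RefSeq windows of 300 bases (GRCm38.p6, from 250 bases before to 50 bases after a transcription start) were available for 6 of the 7 genes, and Gabrd was not among them. The pair that was higher in replicate 2, the most abundant alpha and beta genes described here, and the lowest gene are shown, each from 5′ to 3′ on its own strand. Capitals mark matches to GCGNGGGCG, a 9-base site of the Egr family of activity-induced zinc finger factors, and to GGGCGG, the GC box of the Sp and KLF factors, on either strand.
Gabra4, chr5:71658259-71658558, minus strand: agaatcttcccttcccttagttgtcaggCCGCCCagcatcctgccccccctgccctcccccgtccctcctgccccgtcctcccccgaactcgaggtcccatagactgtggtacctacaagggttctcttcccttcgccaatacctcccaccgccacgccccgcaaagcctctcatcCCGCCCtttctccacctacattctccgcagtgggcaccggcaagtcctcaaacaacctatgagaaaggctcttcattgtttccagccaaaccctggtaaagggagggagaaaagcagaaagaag
Gabrb1, chr5:71657671-71657970, plus strand: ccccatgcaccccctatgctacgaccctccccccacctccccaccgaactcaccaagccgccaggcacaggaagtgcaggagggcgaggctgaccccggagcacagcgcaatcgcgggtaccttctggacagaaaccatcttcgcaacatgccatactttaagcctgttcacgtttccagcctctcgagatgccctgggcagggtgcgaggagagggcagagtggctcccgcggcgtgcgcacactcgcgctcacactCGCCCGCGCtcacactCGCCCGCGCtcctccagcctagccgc
Gabra5, chr7:57510010-57510309, minus strand: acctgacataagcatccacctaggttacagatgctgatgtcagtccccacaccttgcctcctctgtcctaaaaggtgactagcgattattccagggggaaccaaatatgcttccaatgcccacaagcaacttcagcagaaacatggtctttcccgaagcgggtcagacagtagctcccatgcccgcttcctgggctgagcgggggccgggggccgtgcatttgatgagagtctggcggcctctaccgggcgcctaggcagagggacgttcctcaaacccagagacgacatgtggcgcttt
Gabrb2, chr11:42420190-42420489, plus strand: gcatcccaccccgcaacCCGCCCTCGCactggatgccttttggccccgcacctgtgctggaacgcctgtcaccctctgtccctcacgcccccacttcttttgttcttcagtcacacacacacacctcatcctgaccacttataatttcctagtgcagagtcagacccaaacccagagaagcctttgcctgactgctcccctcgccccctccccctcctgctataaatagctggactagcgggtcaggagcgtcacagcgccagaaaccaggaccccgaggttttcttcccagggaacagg
Gabra3, chrX:72656870-72657169, minus strand: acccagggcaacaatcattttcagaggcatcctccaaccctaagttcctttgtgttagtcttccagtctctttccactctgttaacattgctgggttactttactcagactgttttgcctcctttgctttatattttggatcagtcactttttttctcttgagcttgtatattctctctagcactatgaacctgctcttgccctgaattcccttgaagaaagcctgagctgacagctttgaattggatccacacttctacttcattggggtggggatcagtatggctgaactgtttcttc

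The Gabrb1 window held 2 matches to GCGNGGGCG, both on the reverse strand, at 9 to 17 and 25 to 33 bases after the start. The window of the first Gabrb2 start held 1, which overlapped a GC box, and the other windows of the 6 genes held none. Of all 32851 RefSeq windows, 5.55% held this motif. The Gabra4 and Gabra2 windows held 2 GC boxes each, against 35.7% of all windows with at least 1. No member window held TGACGTCA, the full cAMP response element, which 1.79% of all windows held, and TATAAA or its reverse complement was found for Gabrb2 and Gabra3 (13.6% of all windows). CpG pairs ranged from 0 in both windows of Gabra3 to 25 in the Gabra2 window and the first Gabrb1 window, with a median of 7 over all windows, and these letters are a description of the windows only.

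The 4 Egr family genes, chosen after their values were seen, did not share a direction between the libraries. In cultured rat neurons Egr3 has been linked to transcription of Gabra4. Egr3 was at 2071 CPM in replicate 2, against 304 CPM in replicate 1, and Egr2 at 3.27 CPM in replicate 2, against 0.767 CPM in replicate 1. Egr1 was at 86.2 CPM in replicate 2, against 112 CPM in replicate 1, and Egr4 at 4.71 CPM in replicate 2, against 5.84 CPM in replicate 1. Egr3 and Egr2 were thus higher in replicate 2, and Egr1 and Egr4 lower. The part of these factors in the levels of Gabra4 and Gabrb1 was not tested.

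Of 12 further GABA-A subunit genes in the tables, 4 reached a CPM of 1 in both libraries, against 38.1% of all symbols. These 4 had a median log2 ratio of -0.24. The log2 ratios of all 4 were below 0, as were those of 50.8% of all genes that averaged a CPM of 1 or more, and none passed 1.5-fold, against 26.9% of those genes. Among the 4 was Gabrg3, a gamma subunit gene, at 4.005 CPM in replicate 2, against 5.37 CPM in replicate 1. Gabrg1, the gamma1 gene, had 19 counts in replicate 2 and 27 in replicate 1. The rho genes Gabrr1 and Gabrr2, known from retina, had 10 and 4 counts in replicate 2, and 11 and 17 in replicate 1. Gabra6, the alpha gene of cerebellar granule cells, and Gabre, Gabrp, Gabrq and Gabrr3 had 0 counts in both libraries, which allows up to 0.0917 CPM in replicate 2, against 0.0958 CPM in replicate 1.

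Of 31 listed genes that place and traffic GABA-A receptors, 28 were found by symbol in the tables. These 28 reached a CPM of 1 in both libraries, against 38.1% of all symbols, with a median of 84.7 CPM. Among the highest were Nsf, the ATPase of membrane fusion that also binds beta subunits, at 1503 CPM in replicate 2, against 1597 CPM in replicate 1, and Gabarapl1, a relative of the GABA-A receptor-associated protein, at 443 CPM in replicate 2, against 429 CPM in replicate 1. Rdx, the radixin gene, whose product holds alpha5 receptors at extrasynaptic actin, was at 33.0 CPM in replicate 2, against 21.05 CPM in replicate 1, a log2 ratio of 0.74. It was thus higher in replicate 2, where Gabra5 was lower. On this list 2 of 28 genes passed 1.5-fold towards replicate 2, against 12.6% of all genes, and none towards replicate 1, against 14.3%.

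Genes of the GABA supply and the chloride gradient were detected in 14 of 17 cases, against 38.1% of all symbols. Wnk1, a kinase that regulates chloride cotransporters, was the highest at 277 CPM in replicate 2, against 316 CPM in replicate 1. Slc12a5, the neuronal chloride exporter KCC2, was at 172 CPM in replicate 2, against 194 CPM in replicate 1, and the related kinase gene Wnk3 was at 109 CPM in replicate 2, against 114 CPM in replicate 1. Past 1.5-fold were the GABA synthesis genes Gad1 (log2 ratio 0.69) and Gad2 (1.21), higher in replicate 2, and the GABA transporter gene Slc6a11 (-1.24), lower. These are 3 of the 14 genes of the list that averaged a CPM of 1 or more, a smaller share than the 26.9% of all genes past 1.5-fold. Of 11 genes for neurosteroid synthesis and the benzodiazepine-site peptide, 4 were detected, a share near the 38.1% of all symbols. The highest was Dbi, which encodes that peptide's precursor, at 33.9 CPM in replicate 2, against 36.1 CPM in replicate 1. Star, which moves cholesterol into mitochondria, was at 13.7 CPM in replicate 2, against 9.71 CPM in replicate 1, and Srd5a3, a 5-alpha reductase family gene, was at 3.42 CPM in replicate 2, against 7.51 CPM in replicate 1. Srd5a1, the brain 5-alpha reductase gene of the route to allopregnanolone, was at 2.05 CPM in replicate 2, against 2.56 CPM in replicate 1. Srd5a2 and Hsd17b6 had 0 counts. Of the 6 genes for GABA-B receptors and their auxiliary subunits, 4 were detected, against 38.1% of all symbols. Gabbr1 was at 288 CPM in replicate 2, against 351 CPM in replicate 1, Gabbr2 at 182 CPM in replicate 2, against 268 CPM in replicate 1, and Kctd12, an auxiliary subunit gene, at 667 CPM in replicate 2, against 312 CPM in replicate 1, a log2 ratio of 1.19.

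Markers of other cells that use these subunits were counted beside them. Fewer cells of a type and less RNA per cell cannot be told apart in such pools. The 10 astrocyte markers, of which 9 were detected, summed to 521 CPM in replicate 2, against 489 CPM in replicate 1, mostly from Slc1a2, followed by Aldoc. The 13 interneuron markers, 5 of them detected, summed to 165 CPM in replicate 2, against 128 CPM in replicate 1, led by Gad1, while the vesicular transporter Slc32a1 was at 0.367 CPM in replicate 2, against 0.703 CPM in replicate 1. Oligodendrocyte precursor markers (6 of 8 detected, led by Vcan and Pdgfra) summed to 53.8 CPM in replicate 2, against 35.7 CPM in replicate 1. Cajal-Retzius markers (4 of 6, led by Reln and Ndnf) summed to 92.0 CPM in replicate 2, against 62.9 CPM in replicate 1. The part of these cells in the higher Gabrb1 and Gabra4 levels of replicate 2 was not tested.

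Pyramidal and mossy cell markers had lower sums in replicate 2. CA1 markers (5 of 6 detected, led by Wfs1 and Mpped1) summed to 88.5 CPM in replicate 2, against 128 CPM in replicate 1, and CA3 markers (6 of 7, led by Nrip3 and Dkk3) summed to 417 CPM in replicate 2, against 592 CPM in replicate 1. Mossy cell markers (4 of 7, led by Ajap1 and Gria4) summed to 46.4 CPM in replicate 2, against 75.3 CPM in replicate 1. Gabra5 and Gabrb2 were lower in replicate 2 too, and the part of these cells in that difference was not tested. Oligodendrocyte markers (7 of 8, led by Mbp) summed to 162 CPM in replicate 2, against 196 CPM in replicate 1, endothelial markers (7 of 8, led by Flt1 and Tek) to 25.1 CPM in replicate 2, against 27.4 CPM in replicate 1, and microglial markers (1 of 8, with C1qa and C1qb at 0) to 7.21 CPM in replicate 2, against 5.88 CPM in replicate 1. Newborn neuron markers (3 of 8, with Eomes and Igfbpl1 at 0) summed to 322 CPM in replicate 2, against 78.3 CPM in replicate 1, of which Sox11 held 312 CPM in replicate 2 and 63.3 CPM in replicate 1, with Dcx next.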

How the data were processed

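Ribosome-bound RNA of 2 immunopurified libraries of 1 group was analysed. The authors deposited raw counts for each gene symbol. STAR 2.0.0e, HTSeq and build mm10 are named, per the submitters' processing notes, and neither an annotation nor a strand setting is given in the sources used here. Lines that name no gene (HTSeq's summary lines and the line unknown) were left out of the totals; gene lines held 64.9% of all counted lines in replicate 2 and 65.0% in replicate 1. CPM was computed as counts per 1000000 of these gene-line counts. Lengths came from GENCODE M21 (GRCm38), with the union of exons as the main length. Log2 ratios used TMM totals over all genes and a prior count of 2 (edgeR 4.0.16), with exact Clopper-Pearson 95% counting intervals (SciPy 1.17.1); the ratios were tested on simulated data. Reads carry no molecular identifiers, so intervals and limits for a count of 0 (3 counts) cover counting error only. With 1 group there is no test between conditions, and 2 libraries fix no pattern across samples. The rule for named genes, given below, therefore takes no gene for likeness to a member. The 4 Egr genes stand outside that rule, and were set beside Gabra4 and Gabrb1 after their values were seen. Alternatives were other library scalings (DESeq2 1.42.0 size factors, library totals alone, totals without Rn45s and Lars2), lengths, thresholds and single libraries; the coding length of the annotation was added after the data were seen.

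The members and all gene lists were chosen with earlier results of these data known. The rule for named genes takes the members, the other subunit genes, the 3 highest members of each further list and those past 1.5-fold at a mean CPM of at least 10, and of each marker list the 2 highest and those at 0. Outside it, Egr1, Egr2, Egr3, Egr4, Srd5a1, Slc32a1 and the CA3 markers other than Nrip3 and Dkk3 were chosen after their values were seen. Of the other subunit genes 3, and a few list members that the rule takes, are not reported here.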

Additional observations from a re-analysis of the deposited data

Results flagged for a closer look

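Reads outside the gene lines entered no level. Reads over no annotated feature made up 17.0% of all counted lines in replicate 2 and 16.7% in replicate 1. Alignments that were not unique made up 15.5% in replicate 2 and 15.7% in replicate 1. Reads over several genes made up 2.56% in replicate 2 and 2.61% in replicate 1. This class would hold reads over the shared exons of Gabra4 and Gabrb1 only if counting ignored strand, a setting that is not given. Groups of 2 libraries allow no check for an outlying sample.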

How the results depend on the processing

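Over the summary results, 14 of 16 values under another setting stayed within the allowance, which was the SD between the libraries for levels and 1.5 times for counts. The median level of the 7 genes was 99.0 CPM, and 105 CPM with totals that left out Rn45s and Lars2. Leaving out 1 library gave medians of 97.2 to 101 CPM, a span that the SD contains by construction. The number of genes past 1.5-fold was 0 under the main settings, with library totals alone, with DESeq2 size factors and at a fold of 2, and it was 1 of 7 with no filter on low counts, which adds Gabra3, against 35.0% of the 16707 genes with a count in both libraries. All 7 genes kept their place in the order per length in each library alone and with the longest transcript, and 5 did so with the coding length and with CPM not corrected for length, where Gabrd and Gabrb1 changed places. Of the values of single genes, 67 stayed within the allowance and 17 did not. The 67 include the levels and shares with 1 library left out, which the SD contains by construction. Most of the 17 were levels per length under another length, and 4 were log2 ratios under library totals alone, those of Gabra2, Gabra4, Gabra5 and Gabrb2. With no filter, all 7 genes counted as detected, and 6 did at a CPM of at least 5. The coding length of a protein table was not run, and a log2 ratio cannot be had with a library left out. No paired analysis was possible because there is 1 group. Depth limits Gabra3 and the subunit genes with under 30 counts.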
